A study of Homo sapiens with 4 samples.

Results

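Mitochondrial ribosomal protein genes encode the proteins of the mitoribosome, the ribosome that translates the few messenger RNAs of the mitochondrial genome. These genes lie in the nucleus, their messenger RNAs are translated in the cytosol, and the proteins are imported into mitochondria, where they join the mitochondrial ribosomal RNAs. MRPL genes name proteins of the large subunit, which holds the peptidyl transferase centre, and MRPS genes name proteins of the small subunit, which reads the messenger RNA. Some members descend from bacterial ribosomal proteins and others have no bacterial counterpart.

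Members were the transcripts whose gene name is MRPL or MRPS followed by a number and at most 1 letter, with every isoform kept. This gave 57 of 9880 listed transcripts in HT-29, from 44 of 6489 gene names, and 54 of 11943 in CaCo-2, from 34 of 7452 gene names. The 111 entries are 100 different transcripts, because 11 were listed in both lines. RNA was measured by RIP-Seq, in which RNA is sequenced after an antibody has precipitated a protein from a lysate, in HT-29 and CaCo-2 cells, 2 untreated human lines from colon adenocarcinoma. In each line 1 RIP library came from nuclear lysate taken through a beta-catenin antibody (Bethyl A302-012A) and protein G beads, and 1 input library had no antibody. A mock precipitation was not analysed here, each line is a single culture model, and 4 libraries with 1 per group leave no replicate error: no fold below was tested by replicates.

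Levels are FPKM of single transcripts, normalised by the authors for length and library size, and the 2 lines were normalised in separate tables. The tables hold transcripts higher in the RIP alone: the lowest deposited fold was 1.5 in both lines, so the direction of every ratio was set by the listing. Which library a level belongs to was read from the column names. The deposited log2 fold change runs the same way as those columns, whereas the deposited test statistic has the opposite sign for all transcripts with input above 0. The labels do not settle that conflict, and every direction given here rests on the column names. The ratio used here adds a pseudocount of 1 FPKM to each level, log2((RIP + 1)/(input + 1)), so that ratios of low transcripts come out too small. Passing 2-fold below refers to this ratio, while folds of the levels themselves are named as deposited. Transcripts that reached 1 FPKM in the RIP or the input of a line were kept. All 57 HT-29 members passed, as did 53 of 54 CaCo-2 members, where MRPS23 stayed out at 0.967 FPKM in the RIP against 0.374 in input. Sequencing depth is unknown from these tables. Of 13 colon epithelium markers, the HT-29 table listed 8 and the CaCo-2 table had 6, among them KRT18, with 54.3 (RIP) and 14.7 (input) FPKM in HT-29 and 32.0 (RIP) and 11.6 (input) FPKM in CaCo-2. Of 6 markers of other cell types, ALB, a liver gene, was listed in CaCo-2 alone, at 10.7 FPKM in the RIP against 0.0983 in input for its highest isoform. CDX2 and EPCAM were among the markers listed in neither line.

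Current RefSeq annotation holds 77 protein-coding genes that follow the name pattern. By current symbol, the HT-29 table listed 55.8% of these and the CaCo-2 table had 44.2%, where 24.6% and 28.1% of all RefSeq protein-coding symbols were listed. A gene has to be detected in the RIP to be listed, so these shares are not an enrichment among expressed genes. MRPS36 follows the pattern in the table but is now named KGD4 and assigned to the alpha-ketoglutarate dehydrogenase complex rather than to the mitoribosome. In all, 55 gene names were listed in at least 1 line, spread over 18 chromosomes with at most 6 genes on 1 chromosome.

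For 33 of 57 member transcripts in HT-29, or 57.9%, the ratio with the pseudocount reached 2-fold, against 56.0% of all listed transcripts. The median log2 ratio was 1.15 for the members and 1.14 for the table. The CaCo-2 count was 21 of 53 members, or 39.6%, against 40.8% of the table, with median log2 ratios of 0.79 and 0.82. Both member shares lay near the share of the whole table, so the family did not stand apart from the other listed transcripts in either line by this measure. By the deposited levels, 41 of 57 HT-29 and 38 of 54 CaCo-2 members were at least 2-fold higher or had input at 0. That count is not given here for all listed transcripts. Where input was above 0, the median deposited fold in HT-29 was 2.39 for members and 2.46 for the table. The CaCo-2 medians were 2.12 and 2.21. A transcript with input listed at 0 passes 2-fold by construction once it passes the filter. Input was at 0 for 21 members in HT-29 (36.8%, against 31.8% of the table) and for 13 in CaCo-2 (24.1%, against 29.0%). Where both libraries reached 1 FPKM, 7 of 22 members passed 2-fold in HT-29 (31.8%, against 25.2%) and 1 of 14 in CaCo-2 (7.14%, against 13.1%). The 1 CaCo-2 transcript was MRPL10.

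**Figure D1:**
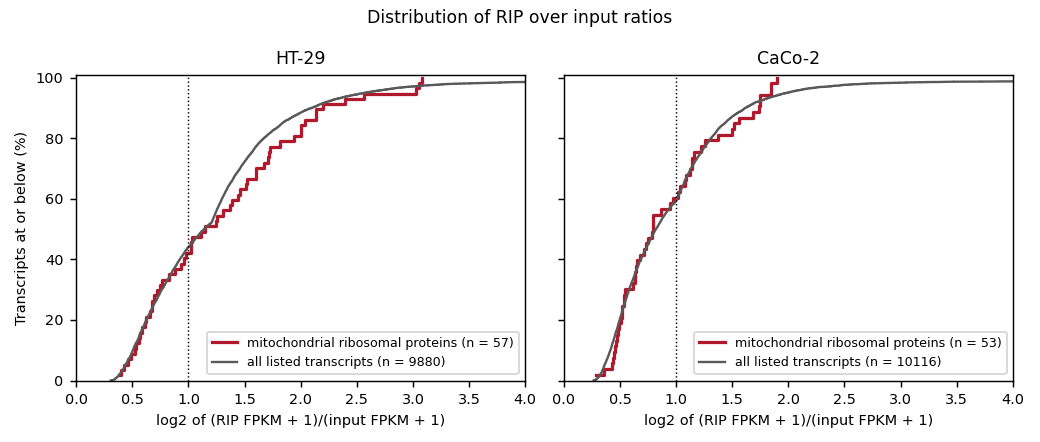
Cumulative distribution of the log2 ratio of RIP over input (x axis, pseudocount of 1 FPKM) for mitochondrial ribosomal protein transcripts (red) and for all listed transcripts (grey) in HT-29 (left) and CaCo-2 (right); the y axis is the percentage of transcripts at or below each ratio and the dotted line marks 2-fold. The curves run close together up to 2-fold in both lines, and the members reach at most 3.08 in HT-29 and 1.90 in CaCo-2.

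Most members were at a few FPKM. The median RIP level was 3.005 FPKM in HT-29 (quartiles 2.04 and 6.999), against 2.45 for the table, and 1.92 in CaCo-2 (quartiles 1.48 and 2.71), against 1.55. Cytosolic ribosomal protein transcripts, the counterpart family of the cytosol, had a median RIP level of 6.38 FPKM in HT-29 over 176 transcripts and 2.41 in CaCo-2 over 105. Of them, 95 of 176 (54.0%) passed 2-fold in HT-29, and CaCo-2 had 40 of 96 (41.7%). Where both libraries reached 1 FPKM those counts were 51 of 123 (41.5%) and 15 of 46 (32.6%), above the member shares of 31.8% and 7.14%. The difference between the families was not tested.

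MRPL10, the homologue of the bacterial protein at the base of the ribosomal stalk, was measured at 1 FPKM or more in all 4 libraries. Its transcript ENST00000351111 (hg19 chromosome 17, 45900638 to 45908883, minus strand, protein-coding) had 6.30 (RIP) and 2.29 (input) FPKM in HT-29. It had 22.1 (RIP) and 9.91 (input) FPKM in CaCo-2, the highest RIP level of any member in that line. The deposited folds were close, 2.75 and 2.23, although both CaCo-2 levels were over 3 times the HT-29 levels as listed. The authors' deposited table lists q = 0.251 for HT-29 and q = 0.0102 for CaCo-2. This was the only member with q at or below 0.05 in CaCo-2, 1.85% of the 54, against 2.24% of that table.

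MRPS18B, a mitochondrial relative of the bacterial small-subunit protein S18, held the highest member ratio in HT-29. Its transcript ENST00000472229 (chromosome 6, 30585637 to 30594172, plus strand, class processed transcript) reached 7.46 FPKM in the HT-29 RIP, from an input of 0. The authors' deposited table lists q = 0.0312, the only member there at or below 0.05, 1.75% of the 57 against 3.08% of that table. The same transcript had 2.62 (RIP) and 0.00680 (input) FPKM in CaCo-2, and q = 1 in the authors' deposited table. A protein-coding isoform of MRPS18B was listed in CaCo-2 too, with 3.68 (RIP) and 1.83 (input) FPKM, a log2 ratio of 0.73. In HT-29 a listed processed transcript of PPP1R10 on the opposite strand overlaps MRPS18B by 753 nucleotides and had 6.39 (RIP) and 0 (input) FPKM. Whether counting used strand is unknown here, so reads of these overlapping transcripts cannot be told apart where they overlap.

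The paralogues of MRPS18B were listed as well. MRPS18A, which sits in the large subunit despite its name, reached 4.27 FPKM in the HT-29 RIP from an input of 0 (protein-coding ENST00000427312, with q = 0.0671 in the authors' deposited table). In CaCo-2 another protein-coding isoform of MRPS18A had 2.19 (RIP) and 1.03 (input) FPKM, a log2 ratio of 0.65. MRPS18C was listed in HT-29 alone, at 1.62 FPKM in the RIP with input at 0. For all 3 paralogues the HT-29 transcript thus had input listed at 0, which held for 31.8% of all transcripts of that table. The CaCo-2 table had a share of 29.0%, and the MRPS18B processed transcript there had an input of only 0.00680 FPKM. MRPS18A was listed by different isoforms, and the paralogues were named after their values were seen. No difference between the lines is read from these inputs.

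Unadjusted p at or below 0.05 in the authors' deposited table was reached by 13 of 57 members in HT-29 (22.8%, against 17.0% of the table) and 8 of 54 in CaCo-2 (14.8%, against 14.3%). These came from 12 and 7 genes, 3 of them in both lines: MRPL10, MRPL42 and MRPL55. MRPL10 and MRPL42 did so by the same transcript, and MRPL55 by different ones. Input was at 0 for 9 of the 13 and 5 of the 8. Neither the overlap of genes nor this input count is given here for all listed transcripts, so neither is read as a trait of the family.

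Beyond MRPS18B, the highest ratios in HT-29 belonged to MRPL52, MRPL13, MRPL16, MRPS18A, MRPS24, MRPS25, MRPS28, MRPL19 and MRPS35. MRPL52, a large-subunit protein without a bacterial counterpart, was at 7.31 FPKM in the RIP by a processed transcript, and MRPL13 at 7.14 by a protein-coding one, both with input at 0. MRPL16 reached 4.90, MRPS25 3.404, MRPS28 3.38 and MRPL19 3.09 FPKM in the RIP, each also with input at 0. Input was measured for the other two of the 10: MRPS24, the homologue of a bacterial protein at the messenger RNA entry site, had 6.999 (RIP) and 0.743 (input) FPKM by a nonsense-mediated-decay transcript. MRPS35, a mitochondria-specific small-subunit protein, had 4.89 (RIP) and 0.471 (input). These deposited folds of 9.42 and 10.4 carry q = 0.642 and q = 0.712 in the authors' deposited table.

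Where both HT-29 libraries reached 1 FPKM, the 7 members past 2-fold were MRPL48, MRPL22, MRPL42, MRPL34, MRPL10, MRPS12 and MRPS11. MRPL48, part of the central protuberance of the large subunit, was at 8.39 FPKM in the RIP against 1.86 in input. MRPL22 was at 7.41 against 1.94, MRPL42 at 7.47 against 2.08 and MRPL34 at 10.3 against 3.76. MRPS12, whose bacterial homologue lies in the decoding centre, was at 11.5 FPKM in the RIP against 4.78 in input, and MRPS11 at 3.93 against 1.42. In these 7 the ratio does not rest on an input near 0, but the authors' deposited table lists q of 0.251 or more for each. A second listed HT-29 isoform did not pass for MRPL48, with 4.41 (RIP) and 2.39 (input) FPKM. The same held for MRPS12, with 2.11 (RIP) and 1.39 (input) FPKM.

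The most abundant members of the HT-29 RIP had small ratios. MRPL14 was at 17.9 FPKM in the RIP against 10.7 in input, MRPS33 at 16.9 against 10.9, MRPS6 at 16.1 against 8.60 and a processed transcript of MRPS16 at 12.5 against 7.84. MRPL24 followed at 11.1 against 6.57 and MRPL41 at 9.10 against 5.41. None of these 6 passed 2-fold, and their log2 ratios lay between 0.59 and 0.83. Of the 10 highest RIP levels in HT-29, MRPS12, MRPL34, MRPL48 and MRPL42 did pass. The 24 member transcripts below 2-fold in HT-29 ranged from 1.498 to 17.9 FPKM in the RIP. The 21 with input at 0 ranged from 1.39 to 7.46 FPKM, all below the 7 members with a RIP level above 10 FPKM.

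**Figure D2:**
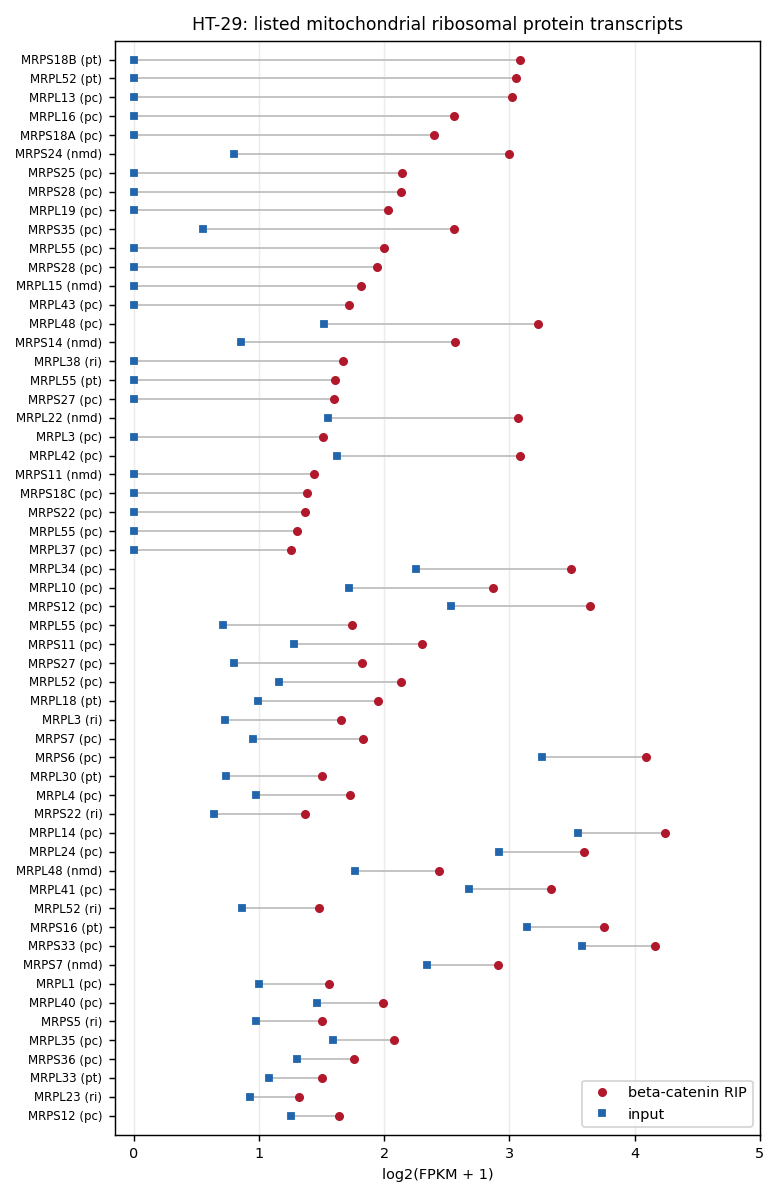
RIP level (red circles) and input level (blue squares) of each of the 57 mitochondrial ribosomal protein transcripts listed in HT-29, on the log2(FPKM + 1) scale, ordered by ratio from the top; pc is protein-coding, nmd nonsense-mediated decay, pt processed transcript and ri retained intron. The upper rows mostly start from an input of 0, and the highest RIP levels, MRPL14 at 17.9 FPKM and MRPS33 at 16.9 FPKM, are in the lower part with input above 10 FPKM.

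In CaCo-2 the highest ratios were smaller and came from low levels. MRPL43, a mitochondria-specific large-subunit protein, was at 2.74 FPKM in the RIP and MRPL4 at 2.60, both with input at 0. For them the authors' deposited table lists q = 0.481 and q = 0.0849. MRPL23, MRPL55, MRPL39 and MRPS25 followed at 2.36, 1.94, 1.85 and 1.82 FPKM in the RIP, each with input at 0. The 13 members with input at 0 ranged from 1.03 to 2.74 FPKM in the RIP in CaCo-2, so their ratios rest on low RIP levels. A retained-intron transcript of MRPL38, a protein of the central protuberance, had the highest deposited fold above an input other than 0, with 1.34 (RIP) and 0.00121 (input) FPKM. The authors' deposited table lists q = 1 for it.

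Behind MRPL10, the most abundant CaCo-2 members in the RIP were MRPS28 at 7.90 FPKM against 5.22 in input, MRPL42 at 7.80 against 3.57 and MRPL54 at 5.49 against 3.47. MRPS27 was at 4.30 against 2.07 by a protein-coding isoform, and MRPL17 at 4.09 against 2.58. These 5 transcripts were below 2-fold by the ratio with the pseudocount, with log2 ratios from 0.51 to 0.95. Their deposited folds include 2.185 for MRPL42 and 2.08 for MRPS27, with the others below 2. Further down the 10 highest, MRPL49 was at 3.22 FPKM in the RIP against 0.993 in input and MRPL48 at 3.20 against 0.620, both past 2-fold, while MRPL11 was at 3.14 against 2.06. MRPL10 alone of the 54 members was above 10 FPKM in the CaCo-2 RIP, where 312 of 11943 listed transcripts were. In the HT-29 RIP 7 of 57 members were, where 825 of 9880 listed transcripts were. The lines were normalised separately, so these counts are not read as a difference between the lines.

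**Figure D3:**
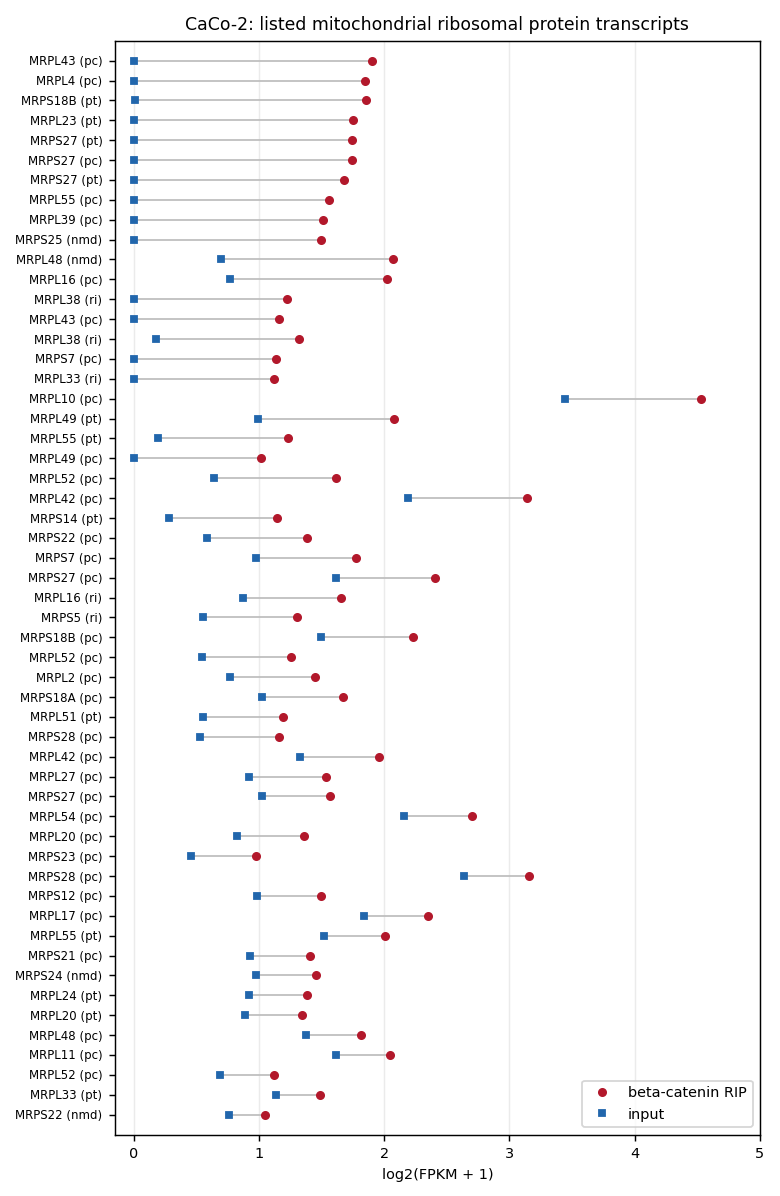
RIP level (red circles) and input level (blue squares) of the 54 mitochondrial ribosomal protein transcripts listed in CaCo-2, on the log2(FPKM + 1) scale, ordered by ratio from the top, with the same class abbreviations (pc protein-coding, nmd nonsense-mediated decay, pt processed transcript, ri retained intron). MRPL10 stands to the right of all other rows at 22.1 FPKM in the RIP and 9.91 FPKM in input, and the largest ratios sit at RIP levels under 3 FPKM.

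Across the lines, 23 gene names were listed in both, 52.3% of the HT-29 members and 67.6% of the CaCo-2 members, where 59.2% and 51.6% of all gene names were. For 13 of the 23, the HT-29 and CaCo-2 tables listed wholly different isoforms, as for MRPS18A, MRPS25, MRPL4, MRPL48 and MRPL52. How often this holds among all 3843 gene names listed in both lines is not given here, so it is not read as a trait of the family. The 11 shared transcripts came from 10 genes and made up 19.3% of the HT-29 and 20.4% of the CaCo-2 members, against 19.5% and 16.1% for all listed transcripts. Of the 11, 5 passed 2-fold in both lines (45.5%), against 29.9% of the 1773 transcripts of other genes that passed the filter in both tables. They were MRPL10, MRPL16, MRPL43, MRPS18B and 1 of the 2 shared MRPS27 transcripts. That difference was not tested.

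MRPL43 (ENST00000318364, chromosome 10, 102746033 to 102747272, minus strand) reached 2.30 FPKM (HT-29) and 2.74 FPKM (CaCo-2) in the RIPs, with input at 0 in both. MRPS27 (ENST00000508863, chromosome 5, 71516916 to 71616049, minus strand), which encodes a pentatricopeptide repeat protein of the small subunit, was at 2.03 and 2.34 FPKM in the 2 RIPs, also with input at 0 in both. MRPL16 (ENST00000534340, chromosome 11, 59574008 to 59577773, minus strand) had 4.90 (RIP) and 0 (input) FPKM in HT-29, and 3.07 (RIP) and 0.705 (input) FPKM in CaCo-2. For these 3 the authors' deposited table lists q of 0.291 or more in either line.

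Among the 11, MRPL10, MRPL42 and MRPL33 had at least 1 FPKM in all 4 libraries. MRPL42 (ENST00000552217, chromosome 12, 93861292 to 93895352, plus strand), a protein without a bacterial counterpart, had 7.47 (RIP) and 2.08 (input) FPKM in HT-29, and 7.80 (RIP) and 3.57 (input) FPKM in CaCo-2. The authors' deposited table lists q = 0.458 for HT-29 and q = 0.389 for CaCo-2. MRPL33, by a processed transcript, had 1.83 (RIP) and 1.11 (input) FPKM in HT-29 and 1.81 (RIP) and 1.19 (input) FPKM in CaCo-2, the lowest ratio of the 11 in both lines. The second shared MRPS27 transcript had 2.53 (RIP) and 0.738 (input) FPKM in HT-29 and 1.96 (RIP) and 1.04 (input) FPKM in CaCo-2. MRPS7 had 2.55 (RIP) and 0.935 (input) FPKM in HT-29 and 2.42 (RIP) and 0.967 (input) FPKM in CaCo-2. The log2 ratio was higher in HT-29 for 9 of the 11. Over all 1928 shared transcripts that share was 67.2%.

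The log2 ratio of the shared transcripts differed most between the lines for MRPS24, followed by MRPL16, MRPS18B and MRPL55, by 1.72, 1.303, 1.24 and 1.12 in HT-29 minus CaCo-2. MRPS24 (ENST00000418740, nonsense-mediated decay) had 6.999 (RIP) and 0.743 (input) FPKM in HT-29, and 1.74 (RIP) and 0.972 (input) FPKM in CaCo-2. In HT-29 the readthrough transcript URGCP-MRPS24, which covers all 2956 nucleotides of it on the same strand, was listed too, with 2.13 (RIP) and 0 (input) FPKM. The MRPL55 processed transcript ENST00000465268 had 2.04 (RIP) and 0 (input) FPKM in HT-29, and 3.01 (RIP) and 1.86 (input) FPKM in CaCo-2. Whether these differences exceed the spread between libraries could not be tested with 1 library per group.

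**Figure D4:**
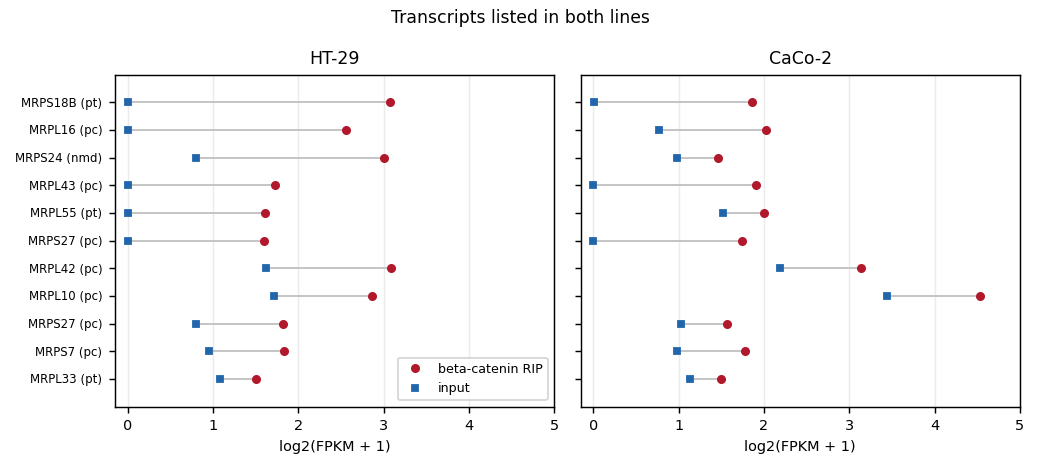
RIP level (red circles) and input level (blue squares) on the log2(FPKM + 1) scale for the 11 transcripts listed in both lines, HT-29 on the left and CaCo-2 on the right, ordered by the HT-29 ratio (pc protein-coding, nmd nonsense-mediated decay, pt processed transcript). MRPL10 is at 22.1 FPKM in the CaCo-2 RIP and 6.30 FPKM in the HT-29 RIP, with lines of similar length in both panels, while MRPS24 has a long line in HT-29 and a short one in CaCo-2.

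In 3 genes at least 3 isoforms were listed in a line. MRPL55 had 4 in HT-29, all past 2-fold, at 3.005, 2.35, 2.04 and 1.47 FPKM in the RIP with input at 0 for all but the second, which was at 0.638. Its 3 isoforms in CaCo-2 had RIP levels of 3.01, 1.94 and 1.34 FPKM, against input levels of 1.86, 0 and 0.143 FPKM. MRPS27 had 5 in CaCo-2, of which the 3 with input at 0 passed 2-fold, and the sum of the 5 was 13.2 FPKM in the RIP against 3.10 in input. For MRPL52, 1 of 3 HT-29 isoforms passed by the ratio with the pseudocount and 0 of 3 CaCo-2 isoforms. Those 3 in CaCo-2 had RIP levels of 2.07, 1.39 and 1.17 FPKM, against input levels of 0.562, 0.459 and 0.615 FPKM. Their deposited folds were 3.69, 3.03 and 1.91, and those of the HT-29 isoforms that did not pass were 2.74 and 2.20. Summed over its listed isoforms, MRPL52 had 12.5 (RIP) and 2.05 (input) FPKM in HT-29 and 4.63 (RIP) and 1.64 (input) FPKM in CaCo-2. Isoforms of a gene share reads that the authors' software divides among them, and an isoform at 0 in input can have sister isoforms above 0 there.

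Every member belonged to 1 of 4 transcript classes. In HT-29, 37 of 57 were protein-coding (64.9%, against 49.6% of the table), 7 nonsense-mediated decay (12.3%, against 7.07%), 7 processed transcript (12.3%, against 15.3%) and 6 retained intron (10.5%, against 17.0%). The CaCo-2 members were 33 protein-coding (61.1%, against 43.0%), 4 nonsense-mediated decay (7.41%, against 6.48%), 12 processed transcript (22.2%, against 16.5%) and 5 retained intron (9.26%, against 22.7%). Part of each table is non-coding genes: these 4 classes were 89.0% and 88.7% of all listed transcripts. Within these 4 classes of the table, 55.7% were protein-coding in HT-29 and 48.5% in CaCo-2, closer to the member shares. Protein-coding members passed 2-fold in 24 of 37 cases in HT-29 (64.9%, against 53.2% of protein-coding transcripts of the table) and 10 of 32 in CaCo-2 (31.3%, against 42.0%), so the member share was above the table in one line and below it in the other. Retained-intron members, in which an intron stays in the transcript, passed in 1 of 6 cases in HT-29 (MRPL38), against 52.0% of the retained-intron transcripts of the table. In CaCo-2 the count was 3 of 5 (MRPL33 and both MRPL38 transcripts), against 32.0%. The retained-intron member share was thus below the table in HT-29 and above it in CaCo-2.

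**Figure D5:**
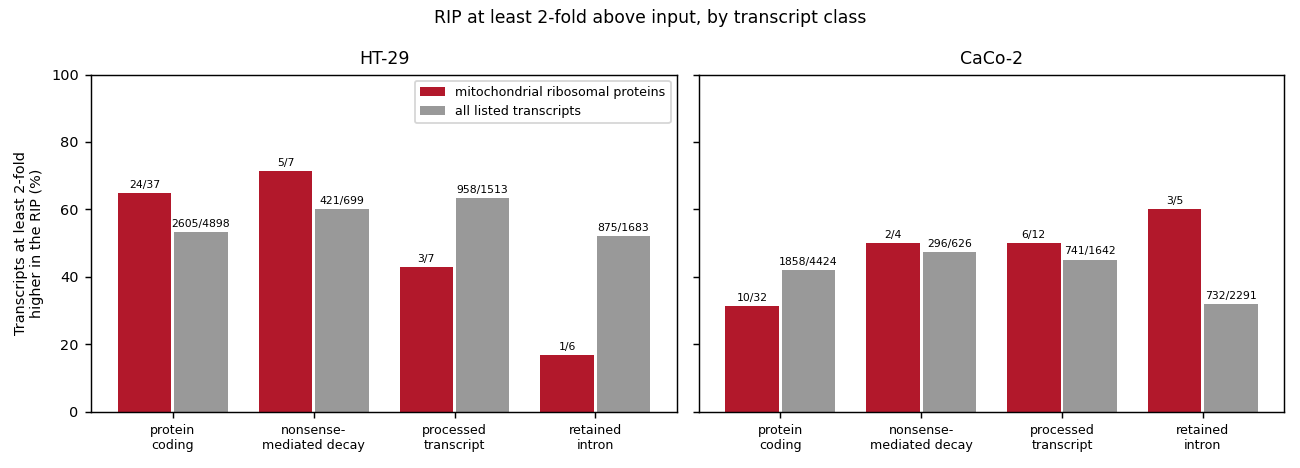
Percentage of transcripts at least 2-fold higher in the RIP (y axis) in each transcript class for mitochondrial ribosomal proteins (red) and all listed transcripts (grey), HT-29 left and CaCo-2 right, with the counts above the bars. The protein-coding members are above the table in HT-29 (24 of 37) and below it in CaCo-2 (10 of 32).

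By role, 19 of 34 large-subunit members (55.9%) passed 2-fold in HT-29, where 56.0% of all listed transcripts did, and CaCo-2 had 15 of 34 (44.1%), where the table had 40.8%. Of the small-subunit members, 14 of 22 (63.6%) passed in HT-29, and CaCo-2 had 6 of 19 (31.6%). The median log2 ratio was 1.20 for the large subunit and 1.24 for the small subunit in HT-29. The CaCo-2 medians were 0.87 and 0.79. Under their current symbols, the HT-29 table listed 27 of 51 large-subunit genes and 16 of 26 small-subunit genes, and the CaCo-2 table had 22 and 12. Of members without a bacterial counterpart, 12 of 19 passed in HT-29 (63.2%), and CaCo-2 had 13 of 26 (50.0%). MRPS18B was counted here although it is a relative of S18, whereas its paralogues MRPS18A and MRPS18C were counted as having a counterpart. Of members with one, 17 of 33 passed in HT-29 (51.5%), and CaCo-2 had 6 of 24 (25.0%). MRPL55 and MRPS36 were placed in neither group. HT-29 listed 5 such transcripts, 4 of them past 2-fold, all from MRPL55. The 3 unplaced CaCo-2 transcripts, also of MRPL55, included 2 past 2-fold. Against the same table shares, the placed members without a counterpart lay above in both lines and the placed members with one lay below. Counting MRPL55 among the latter would raise their HT-29 share, so their place below the table there rests on leaving it out. These differences within the family were not tested.

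In HT-29, 27 of 44 member genes (61.4%) had a transcript past 2-fold, against 64.5% of all gene names with a transcript past the filter. CaCo-2 had 15 of 33 (45.5%), against 50.2%. How many of all 3843 gene names listed in both lines did so in both is not given here. Of the 23 member genes listed in both, 9 did so in both lines, which is not read as a trait of the family. These were MRPL10, MRPL16, MRPL38, MRPL43, MRPL48, MRPL55, MRPS18B, MRPS25 and MRPS27. In HT-29 the others were MRPL3, MRPL13, MRPL15, MRPL19, MRPL22, MRPL34, MRPL37, MRPL42, MRPL52, MRPS11, MRPS12, MRPS14, MRPS18A, MRPS18C, MRPS22, MRPS24, MRPS28 and MRPS35. In CaCo-2 they were MRPL4, MRPL23, MRPL33, MRPL39, MRPL49 and MRPS7. Listed in HT-29 with no transcript past 2-fold were MRPL1, MRPL4, MRPL14, MRPL18, MRPL23, MRPL24, MRPL30, MRPL33, MRPL35, MRPL40, MRPL41, MRPS5, MRPS6, MRPS7, MRPS16, MRPS33 and MRPS36. The corresponding CaCo-2 genes were MRPL2, MRPL11, MRPL17, MRPL20, MRPL24, MRPL27, MRPL42, MRPL51, MRPL52, MRPL54, MRPS5, MRPS12, MRPS14, MRPS18A, MRPS21, MRPS22, MRPS23, MRPS24 and MRPS28. Of the RefSeq genes under the name pattern, 22 were listed in neither line under a current or older name and were not analysed here, among them MRPL12, MRPL45, MRPS2 and MRPS34.

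Mitoribosome proteins with other names showed a mixed picture. The HT-29 table listed 5 of 10 such names, 3 of them past 2-fold, and the CaCo-2 table had 3, all 3 past 2-fold. The 10 names count older and current symbols of a gene separately, as for ICT1 and MRPL58, so they are more than the genes. Over all gene names with a transcript past the filter, 64.5% in HT-29 and 50.2% in CaCo-2 had one past 2-fold. DAP3, a GTP-binding small-subunit protein, was at 4.20 FPKM in the CaCo-2 RIP with input at 0 by a protein-coding isoform. ICT1, a peptidyl-tRNA hydrolase built into the large subunit and now named MRPL58, appeared in both tables as 1 retained-intron transcript, with 2.10 (RIP) and 0.194 (input) FPKM in HT-29 and 1.997 (RIP) and 0 (input) FPKM in CaCo-2. PTCD3, a pentatricopeptide repeat protein, reached 1.78 FPKM (HT-29) and 2.03 FPKM (CaCo-2) in the RIPs by a retained-intron transcript with input at 0 in both. Its protein-coding isoform in HT-29 had 10.3 (RIP) and 4.88 (input) FPKM, below 2-fold. AURKAIP1 had 6.13 (RIP) and 2.16 (input) FPKM in HT-29.

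Of 14 names of mitochondrial translation factors, 7 were listed in HT-29 with 3 genes past 2-fold, and 10 in CaCo-2 with 9 past 2-fold. Input was at 0 for 3 of the 6 HT-29 and 7 of the 10 CaCo-2 transcripts past 2-fold. For the gene counts in this paragraph, the share over all gene names with a transcript past the filter was 64.5% in HT-29 and 50.2% in CaCo-2. TSFM, the exchange factor of the mitochondrial elongation factor Tu, was listed by the same transcript in both lines, with RIP levels of 4.76 FPKM (HT-29) and 1.86 FPKM (CaCo-2) and input at 0. TUFM, elongation factor Tu itself, had 9.27 (RIP) and 1.74 (input) FPKM in CaCo-2 by a transcript that retains an intron. Of 29 names for assembly and ribosomal RNA modification, the HT-29 table listed 9 and the CaCo-2 table had 12, with 3 and 2 past 2-fold. GRSF1, an RNA-binding protein of mitochondrial RNA granules, was at 3.10 FPKM in the CaCo-2 RIP with input at 0 by a nonsense-mediated-decay transcript. Its protein-coding isoform there had 1.03 (RIP) and 0.687 (input) FPKM, below 2-fold. Of 21 names linked to mitochondrial aminoacyl-tRNA synthesis, the HT-29 table listed 4, 3 of them past 2-fold, and the CaCo-2 table had 8, 6 of them past 2-fold. NARS2 had 4.85 (RIP) and 0.278 (input) FPKM in HT-29 and 6.17 (RIP) and 2.22 (input) FPKM in CaCo-2 by the same transcript. The 29 and 21 names also include older and current symbols of the same gene. No transcript of these 4 lists had q at or below 0.05 in the authors' deposited table.

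Overlapping genes and copies limit some values. A listed transcript of another gene overlapped 7 members in HT-29 and 9 in CaCo-2, on the opposite strand for 6 and 8 of them. The same count is not given here for all listed transcripts, so it does not set the members apart. Besides PPP1R10, these include HIRA over MRPL40 in HT-29, CACYBP over MRPS14 and MIF4GD over MRPS7 in CaCo-2, and SARS2, the mitochondrial seryl-tRNA synthetase, over MRPS12 in CaCo-2. RefSeq names 106 pseudogenes of the family, and 30 of the 54 listed genes with a current symbol have at least 1, up to 9 for MRPS21. So do 11 of the 23 family genes not listed by current symbol. Reads of such genes can be shared with their copies. Pseudogene transcripts were listed at 1.35 FPKM in the RIP against 0 in input for MRPS31P5 and 2.15 against 1.35 for MRPL53P1 in HT-29, and at 1.31 against 0 for MRPL35P3 and 7.22 against 4.16 for MRPS21P9 in CaCo-2.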

How the data were processed

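The samples were 4 libraries of nuclear RNA, a beta-catenin RIP and an input in each of 2 cell lines. Per the submitters' processing notes, the authors worked on hg19 with TopHat2 2.0.8, Bowtie2, CASAVA 1.4 and the Cufflinks package with Cuffdiff. Strand setting, annotation release and filters: not given in the sources used here. The deposited values are FPKM per Ensembl transcript, and each p-value and q-value quoted was deposited by the authors, from 1 library per side. Table starts count from 0 and were raised by 1. No per-sample column was left unmapped.

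Log2 ratios used a pseudocount of 1 FPKM, a minimum of 1 FPKM in at least 1 library and a threshold of 2-fold, in Python 3.11.15 with pandas 2.3.3 and numpy 2.4.6; scoring was tested on simulated data. With 1 library per group no test was made. Depth is unknown, so no counting interval is given. Alternatives changed the pseudocount, filter, threshold, isoform rule and class. The members, gene lists and roles were chosen with earlier results of these data known. Values were printed for the 10 highest ratios and RIP levels per line, transcripts shared by both lines, those with q at or below 0.05 and genes with 3 or more isoforms; up to 4 genes were named per side list, and overlapping genes, MRPS36 and MRPS18 paralogues were named after their values were seen. No sequence is shown.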

Additional observations from a re-analysis of the deposited data

How the results depend on the processing

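Against 33 of 57 member transcripts in HT-29, 21 of 53 in CaCo-2 and 5 in both lines, the count past 2-fold was 7, 1 and 1 with at least 1 FPKM in both libraries, 12, 8 and 1 without transcripts at input 0, and 19, 7 and 3 at a threshold of 3-fold. Without input 0, the 12 of 36 and 8 of 40 compare with 35.5% and 19.5% of the tables. At 3-fold, the 19 of 57 (33.3%) and 7 of 53 (13.2%) compare with 23.6% and 10.9%, and the 3 of 11 in both lines with 7.50% of 1773 transcripts of other genes. By gene, the CaCo-2 count was 10 of 33 with the highest isoform (30.3%, against 41.0% of the table). With isoforms summed, 10 genes passed in both lines, a count not given here for all gene names. A pseudocount of 0.1 FPKM gave 35 in CaCo-2 (66.0%, against 67.2%), and protein-coding transcripts alone 10 of 32 (31.3%, against 42.0%). In the order pseudocount of 0.1 FPKM, at least 1 FPKM in both libraries, input 0 left out, highest isoform, isoforms summed and protein-coding alone, the median log2 ratio was 1.65, 0.67, 0.75, 1.20, 1.39 and 1.24 in HT-29 (1.15 as reported), and 1.29, 0.54, 0.64, 0.75, 0.86 and 0.72 in CaCo-2 (0.79 as reported). Over all listed transcripts the same alternatives gave 1.84, 0.72, 0.83, 1.12, 1.24 and 1.07 for HT-29, then 1.43, 0.61, 0.65, 0.83, 1.002 and 0.85 for CaCo-2. The counts therefore depend on low inputs. Dropping the filter left all 5 results within rounding of the reported values. RIP and input were paired within each line by taking their ratio. A paired test over the 2 lines was not made, since the shared transcripts were listed for a higher RIP in both and the tables were normalised separately; no replicate could be left out. Depth is unknown, and most ratios rest on levels of a few FPKM.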
